A study of Mus musculus with 4 samples.

Results

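The 10 transcription factors that build the amacrine and horizontal cells of the mouse retina, Foxn4, Ptf1a, Tfap2a, Tfap2b, Tfap2c, Barhl2, Prox1, Onecut1, Onecut2 and Lhx1, were followed through retinal cells sorted on a Hes1 promoter reporter. These 10 genes were listed by name, with earlier results of these data known, and are 10 of the 21827 genes of the tables after small RNAs were left out. Tfap2a, Tfap2b and Tfap2c stand in the tables under their older symbols Tcfap2a, Tcfap2b and Tcfap2c, so 3 of the 10 were matched through synonyms. All 10 had a line of their own in each library with the Cufflinks status OK, and all but Lhx1 reached an FPKM of 1 in at least 1 library, 9 of the 10. FPKM is a level corrected for transcript length and library size.

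The retinas came from untreated transgenic mice, strain FVB/N in the labels, in which a fragment of the Hes1 promoter drives destabilized EGFP. Cells were separated by a cell sorter into an EGFP-positive fraction, pHes1_EPC, and an EGFP-negative fraction, pHes1_ENC, at postnatal day 1 (P1) and postnatal day 4 (P4). This gives 4 libraries, 1 for each fraction at each age. Both fractions carry the transgene, so the EGFP-negative cells are those that the sorter placed in that fraction, not cells of another mouse. Progenitor genes were listed in pHes1_ENC as well, with 8 of them summing to 691 FPKM at P1 and 403 at P4. The reporter follows Hes1 promoter activity, which marks both retinal progenitors and Müller glia, and the number of animals behind each library is not given in the sources used here. Within an age or a fraction a difference rests on 1 library against 1 and has no estimate of the spread. A fit of fraction and age together over the 4 libraries, which would leave 1 residual degree of freedom, was not run, and no p-value is given. Ranges printed with levels and ratios come from the 95% intervals of Cufflinks, which cover counting error and not the spread between animals.

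Amacrine and horizontal cells are the inhibitory interneurons of the retina. Both are born from a progenitor pool that turns on the forkhead factor Foxn4, which acts upstream of Ptf1a, a basic helix-loop-helix factor that works in a complex with an E protein and Rbpj. Cells that have expressed Ptf1a go on to switch on AP-2 factors in amacrine and horizontal cells and Barhl2 in amacrine cells. Onecut1 acts downstream of Foxn4 in parallel with Ptf1a, and Prox1 and Lhx1 follow in horizontal cells. Horizontal cells are generated mainly before birth, amacrine cells from before birth into the first days after it, whereas rods, bipolar cells and Müller glia dominate the postnatal output.

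The sequences beside these genes are shown for a pair of questions, which known motif letters precede the factors that start the pathway, and whether reads of the related AP-2 genes can be told apart. The windows below are the 250 bases before the gene start in NCBI37/mm9, the build of the tables, written 5′ to 3′ on the strand of the gene. Capitals mark the Rbpj core TGGGAA, the E-box CANNTG and the Hes class C site CACGNG on either strand. Foxn4 and Ptf1a are shown as the early factors with different patterns in the libraries, and Barhl2 as a later amacrine factor. They lie at chr5:114723771-114724020 (minus strand), chr2:19367040-19367289 (plus strand) and chr5:106887186-106887435 (minus strand).
Foxn4: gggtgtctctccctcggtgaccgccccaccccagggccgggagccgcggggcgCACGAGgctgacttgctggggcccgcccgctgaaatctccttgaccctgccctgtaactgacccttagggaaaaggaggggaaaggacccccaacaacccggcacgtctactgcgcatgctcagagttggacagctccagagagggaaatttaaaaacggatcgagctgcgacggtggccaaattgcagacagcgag
Ptf1a: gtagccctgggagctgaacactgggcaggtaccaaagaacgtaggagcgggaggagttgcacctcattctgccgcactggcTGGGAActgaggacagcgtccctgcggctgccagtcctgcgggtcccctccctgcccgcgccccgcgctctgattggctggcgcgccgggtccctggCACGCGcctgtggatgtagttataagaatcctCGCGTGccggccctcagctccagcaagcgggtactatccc
Barhl2: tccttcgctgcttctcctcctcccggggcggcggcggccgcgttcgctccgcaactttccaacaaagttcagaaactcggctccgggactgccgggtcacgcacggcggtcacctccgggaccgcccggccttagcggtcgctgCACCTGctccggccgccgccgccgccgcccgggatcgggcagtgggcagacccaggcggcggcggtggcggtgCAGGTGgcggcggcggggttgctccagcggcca

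The Ptf1a window held the Rbpj core at position -169 from the gene start and the class C letters at -72 and -40. The Foxn4 window held the class C letters at -197 and neither of the other marked motifs, while the Barhl2 window held an E-box at -106 and at -33. Among the 9 members searched, all but Onecut2, the Rbpj core preceded 2 (Ptf1a and Tfap2c) and the class C letters 4 (Foxn4, Ptf1a, Tfap2a and Onecut1). An E-box preceded 5 members (Tfap2a, Tfap2b, Barhl2, Prox1 and Onecut1), and in Onecut1 the E-box and a class C match share the letters CACGTG. On either strand TATAAA preceded 2 members (Tfap2b and Prox1), and the AP-2 letters GCCNNNGGC preceded 0. In the windows of 19962 genes the same letters were found before 20.52% for the Rbpj core, 28.15% for class C, 61.2% for the E-box, 11.53% for TATAAA and 17.02% for AP-2. These matches describe letters, not bound sites.

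The longest run of identical coding bases between Tfap2a and Tfap2b was 29 bases, shorter than the reads of 36 bases.
Tfap2a and Tfap2b: acggccctgcagaactatctcaccgaggc
This run starts at coding base 1168 of Tfap2a and 1189 of Tfap2b. Tfap2a and Tfap2c shared at most 17 bases in a run and Tfap2b and Tfap2c 11. Tfap2a, Tfap2c, Tfap2d and Tfap2e shared 0 stretches of 36 bases with each other or with Tfap2b, so a read with no mismatch fits 1 AP-2 gene only. Over the members, the share of 36-base positions also found in another protein-coding gene was 0% for Foxn4, Ptf1a, Tfap2c, Prox1 and Lhx1 and at most 1.33%, in Barhl2. In Onecut1 it was 0.843%, 15 positions, all shared with 1 other gene.

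In NCBI37/mm9, Foxn4 spans chr5:114704173-114723770 on the minus strand with 10 exons in its longest coding transcript, and Ptf1a spans chr2:19367290-19369128 on the plus strand with 2. Tfap2a lies at chr13:40811044-40829192 (minus), Tfap2b at chr1:19198995-19228815 (plus) and Tfap2c at chr2:172375093-172384121 (plus), each with 7 exons. Barhl2 lies at chr5:106881542-106887185 (minus, 3 exons), Prox1 at chr1:191945658-191994559 (minus, 5 exons), Onecut1 at chr9:74709728-74737454 (plus, 2 exons) and Lhx1 at chr11:84332881-84339036 (minus, 5 exons). Onecut2 has 2 exons and lies on chromosome 18. GENCODE places noncoding genes on the opposite strand over Ptf1a (Gm13336), Tfap2a (Gm16989) and Prox1 (Gm17566). On the same strand over Onecut1 it places Gm16551 and the microRNA AC100600.1. Strand-specific counting is not stated in the sources used here. The overlap is of whole gene spans, introns included, so whether these pairs share reads was not tested.

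The sort was checked on Hes1, the gene whose promoter drives EGFP, which was listed at 16.6 FPKM in pHes1_ENC and 105 in pHes1_EPC at P1, and 3.59 and 93.5 at P4. Of 8 progenitor genes, 7 were higher in pHes1_EPC by more than 2-fold at each age, with summed levels of 2623 against 691 FPKM at P1 and 1622 against 403 at P4. Rod genes stood the other way, with 5 of 6 lower in pHes1_EPC at P1 and 6 of 6 at P4, and their summed level was 413 FPKM in P1 pHes1_ENC and 2905 in P4 pHes1_ENC. In pHes1_EPC the same sum was 26.6 FPKM at P1 and 554 at P4. The 4 red blood cell genes summed to 108 FPKM in pHes1_ENC and 0.353 in pHes1_EPC at P1, and to 322 and 3.95 at P4, and their part in the members' differences was not tested. The FPKM over all genes summed to 277421 to 371999, and 11457 to 12107 genes reached an FPKM of 1 in a library. Read totals are not listed in the tables, and the half-width of a member's interval ran from 2.2% of its FPKM for Tfap2b in P1 pHes1_ENC to 139% for Lhx1 in P1 pHes1_EPC.

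The 10 factors were mainly genes of P1 pHes1_ENC. At P1, 7 of them were lower in pHes1_EPC by more than 2-fold on the log2(FPKM + 1) scale and 0 were higher, and intervals were apart for 8 members, 7 lower and 1 higher (Prox1), and for 43.9% of all genes. By the same rule 6.79% of all genes were lower and 6.1% higher at P1, and 11.8% and 10.6% of the expressed genes, which are those at 1 FPKM or more in either of the libraries compared. The median difference of the 10 members was -2.65, beside 0 for all genes and 0.03 for expressed genes. At P4, 5 members were lower in pHes1_EPC and 0 higher, beside 5.42% and 9.85% of all genes and 9.56% and 17.4% of expressed genes, and the median was -1.01 beside 0 and 0.17. Intervals were apart at P4 for 8 members, 6 lower and 2 higher (Foxn4 and Prox1), and for 46.9% of all genes. The members are not independent of each other, since several act in a chain and in the same cells. In these pooled cells, fewer cells of a type and less RNA per cell cannot be told apart.

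**Figure D1:**
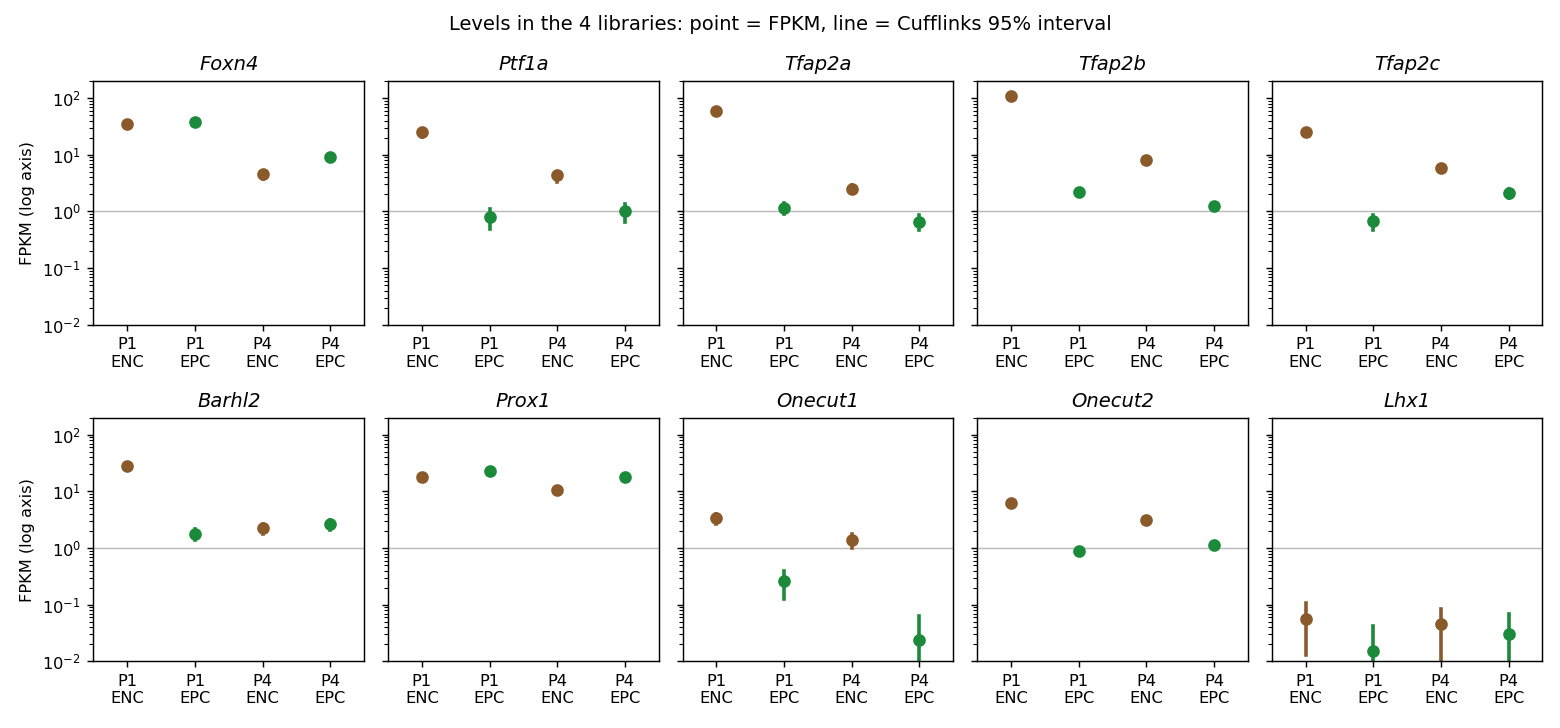
FPKM of each of the 10 genes (log axis, cut at 0.01 FPKM) in the 4 libraries, pHes1_ENC in brown and pHes1_EPC in green, 1 library per point, with the Cufflinks 95% interval as a line and 1 FPKM as a grey line. Ptf1a, the 3 AP-2 genes and Barhl2 stand at 25.1 to 108.5 FPKM in P1 pHes1_ENC and at 0.666 to 2.19 in P1 pHes1_EPC, while Foxn4 and Prox1 lie close together in the 2 fractions at P1.

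Foxn4, the factor at the head of the chain, did not share this pattern. It was listed at 34.4 FPKM (31.1 to 34.5) in pHes1_ENC and 37.3 (33.7 to 37.4) in pHes1_EPC at P1, and 4.48 (3.80 to 4.92) and 9.13 (7.96 to 9.77) at P4. The 2 fractions overlapped at P1 and were apart at P4, when pHes1_EPC held the higher level at 2.03 times that of pHes1_ENC (range 1.62 to 2.58). On the log2(FPKM + 1) scale the difference was 0.11 at P1 and 0.88 at P4, which stays under the 2-fold line. Both fractions were lower at P4 than at P1, by 7.67 times (6.31 to 9.09) in pHes1_ENC and by 4.09 times (3.44 to 4.70) in pHes1_EPC.

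Ptf1a, which commits progenitors to the amacrine and horizontal fates, was a gene of the EGFP-negative fraction. Its level was 25.4 FPKM (20.8 to 25.6) in P1 pHes1_ENC and 0.788 (0.480 to 1.09) in P1 pHes1_EPC. At P4 it was 4.33 (3.26 to 4.95) in pHes1_ENC and 1.00 (0.638 to 1.35) in pHes1_EPC. P1 pHes1_ENC stood above the other 3 libraries, and the 2 pHes1_EPC libraries overlapped. pHes1_ENC exceeded pHes1_EPC 32.2 times at P1 (19.2 to 53.2) and 4.32 times at P4 (2.41 to 7.75). The ratio of Foxn4 to Ptf1a, both levels per transcript length, was 1.35 (1.21 to 1.66) in P1 pHes1_ENC and 47.3 (31.0 to 77.8) in P1 pHes1_EPC. At P4 it was 1.04 (0.767 to 1.51) in pHes1_ENC and 9.10 (5.88 to 15.3) in pHes1_EPC.

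The AP-2 genes encode factors that amacrine and horizontal precursors switch on after Ptf1a, and Tfap2a and Tfap2b act redundantly there. Tfap2b was the highest of the 10 genes in P1 pHes1_ENC, though in no other library. Its level was 108.5 FPKM (107 to 112) in pHes1_ENC and 2.19 (1.94 to 2.45) in pHes1_EPC at P1, and 7.93 (7.39 to 8.48) and 1.24 (1.05 to 1.42) at P4. In P1 pHes1_ENC its level was at the 98.5th percentile of all genes and in P4 pHes1_EPC at the 46.6th. Tfap2a was listed at 59.9 FPKM (58.2 to 62.5), 1.17 (0.903 to 1.43), 2.51 (2.11 to 2.91) and 0.655 (0.463 to 0.848) in the same order. P1 pHes1_ENC exceeded P1 pHes1_EPC 49.5 times for Tfap2b (43.8 to 57.9) and 51.3 times for Tfap2a (40.7 to 69.3). At P4 the same ratios were 6.42 (5.20 to 8.07) and 3.82 (2.49 to 6.28).

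Tfap2c was lower than Tfap2a and Tfap2b in P1 pHes1_ENC. It stood at 25.1 FPKM (23.8 to 26.6) in pHes1_ENC and 0.666 (0.474 to 0.859) in pHes1_EPC at P1, and 5.80 (5.17 to 6.44) and 2.1 (1.74 to 2.46) at P4. Between P1 and P4 it was 4.33 times lower (3.70 to 5.15) in pHes1_ENC and 3.15 times higher (2.03 to 5.19) in pHes1_EPC. The interval ranges were apart in both fractions. In P4 pHes1_EPC it exceeded Tfap2b, 1.70 times (1.23 to 2.34) on the FPKM scale, whereas in P1 pHes1_ENC Tfap2b exceeded Tfap2c 4.32 times (4.03 to 4.71).

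Summed over the 5 AP-2 genes, with Tfap2d and Tfap2e as relatives that were not among the 10, the level was 213 FPKM in pHes1_ENC and 4.58 in pHes1_EPC at P1, and 18.9 and 4.72 at P4. Tfap2b made up 51.0% of that sum in P1 pHes1_ENC and 26.2% in P4 pHes1_EPC, and Tfap2c 11.8% and 44.4%. Tfap2e was listed at 15.7 FPKM in pHes1_ENC and 0.159 in pHes1_EPC at P1, and 0.759 and 0.0603 at P4. Tfap2d was at 3.72, 0.395, 1.88 and 0.673 FPKM in the same order. AP-2 genes are also known from lens and surface ectoderm, and among 10 lens genes 0 reached an FPKM of 1 in any library, with sums of 0.722 to 1.58 FPKM. Of 5 surface ectoderm genes, Krt5 and Trp63 were at 0 in all 4 libraries, Krt14 stayed at or below 0.0874, and Krt12 and Krt15 passed 1 FPKM. Krt12 was the higher in pHes1_ENC, like the AP-2 genes, with 2.36 against 0.0462 FPKM at P1 and 2.71 against 0.373 at P4. Krt15 was the higher in pHes1_EPC, with 7.61 against 1.41 FPKM at P1 and 8.13 against 0.311 at P4. The part of surface ectoderm in the AP-2 levels was not tested.

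**Figure D2:**
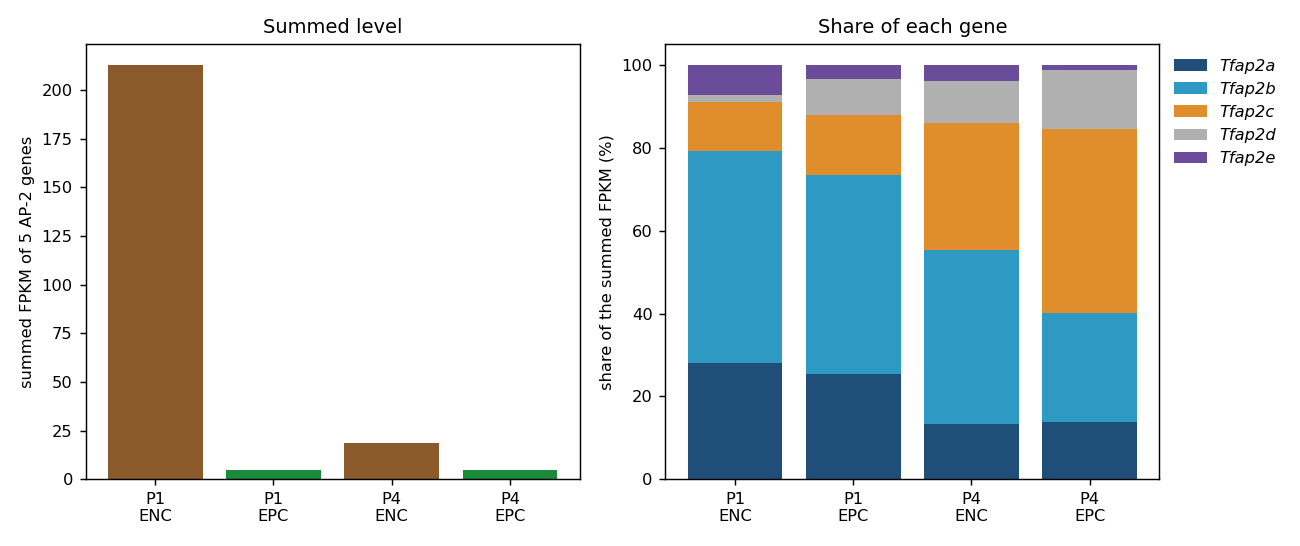
Summed FPKM of the 5 AP-2 genes in each library (left, linear axis from 0) and the share of each gene in that sum in percent (right), 1 library per bar with no error bars. The sum is 213 FPKM in P1 pHes1_ENC and 4.58 to 18.9 elsewhere, and the Tfap2c share is 11.8%, 14.5%, 30.7% and 44.4% from left to right.

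Barhl2, a homeobox factor of amacrine subtypes that is also present in ganglion cells, was the member that was past 2-fold at P1 and had overlapping intervals at P4. Its level was 28.0 FPKM in pHes1_ENC and 1.79 (1.38 to 2.17) in pHes1_EPC at P1, and 2.24 (1.75 to 2.70) and 2.65 (2.1 to 3.14) at P4. The value of P1 pHes1_ENC lies above its own listed interval of 24.6 to 27.8. P1 pHes1_ENC alone was high, and the other 3 libraries lay within 1.79 to 2.65 FPKM. pHes1_ENC exceeded pHes1_EPC 15.7 times at P1 (11.3 to 20.1), while at P4 the ratio of pHes1_EPC to pHes1_ENC was 1.19 (0.777 to 1.80). Ganglion cell genes were also lower at P4 than at P1 in pHes1_ENC, 6 of 10 by more than 2-fold, with a summed level of 41.3 against 10.02 FPKM. In pHes1_EPC 3 of 10 were, with sums of 22.3 and 4.57, and their part in the Barhl2 result was not tested.

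**Figure D3:**
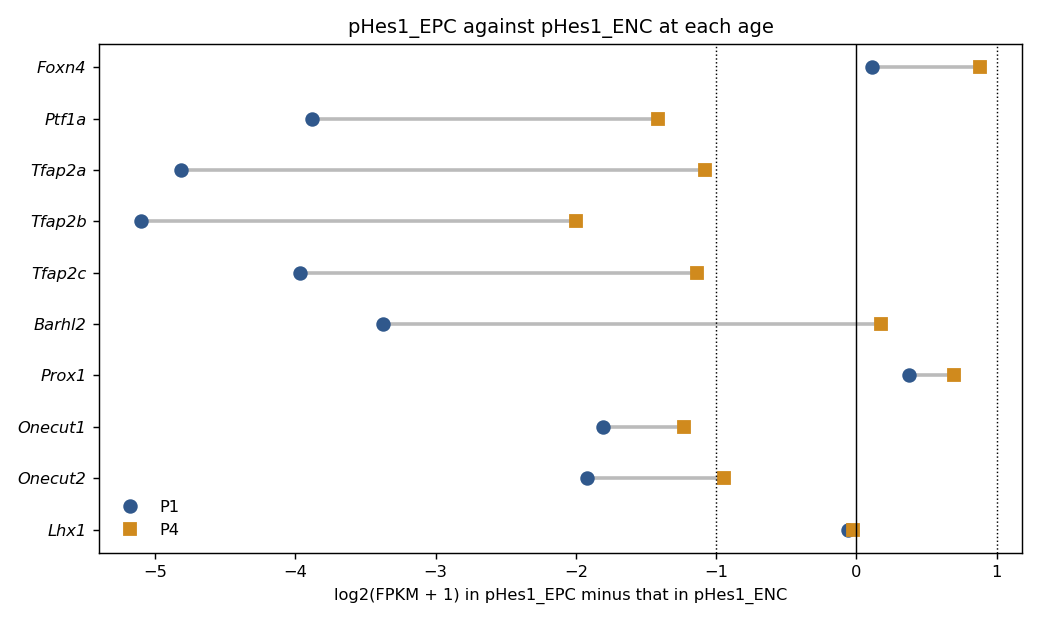
Difference in log2(FPKM + 1), pHes1_EPC minus pHes1_ENC, for each gene at P1 (blue circles) and P4 (orange squares), with dotted lines at 2-fold in either direction and 1 library per fraction and age. Values run from -5.10 (Tfap2b) to 0.38 (Prox1) at P1 and from -1.998 (Tfap2b) to 0.88 (Foxn4) at P4.

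The horizontal cell factors divided into 3 patterns. Prox1, a homeobox factor of horizontal cells that is also present in progenitors and other interneurons, was the highest member in both P4 libraries. It was listed at 17.6 FPKM (16.1 to 18.2) in pHes1_ENC and 23.2 (21.3 to 23.8) in pHes1_EPC at P1, and 10.8 (9.74 to 11.4) and 18.1 (16.6 to 18.7) at P4. All 4 libraries were within 10.8 to 23.2 FPKM, and pHes1_EPC exceeded pHes1_ENC 1.32 times at P1 (1.17 to 1.47) and 1.68 times at P4 (1.45 to 1.92). Neither difference reached 2-fold.

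Onecut1 and Onecut2, cut homeobox factors that act early in horizontal cell specification, were lower and lay on the side of pHes1_ENC. Onecut2 stood at 6.21 FPKM (5.90 to 6.51) in pHes1_ENC and 0.906 (0.803 to 1.01) in pHes1_EPC at P1, and 3.11 (2.90 to 3.31) and 1.13 (1.01 to 1.25) at P4. Onecut1 was listed at 3.41 FPKM (2.63 to 4.01), 0.259 (0.125 to 0.397), 1.41 (0.991 to 1.79) and 0.0238 (0 to 0.0634) in the same order. Both pHes1_ENC libraries were above both pHes1_EPC libraries for each gene. For Onecut2 pHes1_ENC exceeded pHes1_EPC 6.85 times at P1 (5.86 to 8.11) and 2.74 times at P4 (2.32 to 3.26). The P4 difference of -0.94 on the log2(FPKM + 1) scale fell short of 2-fold, unlike the ratio without a pseudocount. For Onecut1 the ratio was 13.2 at P1 (6.63 to 32.0), and at P4 its range began at 15.6 and had no upper end, because the interval of P4 pHes1_EPC reached 0.

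Lhx1, which places horizontal cells in their layer, was listed at 0.0571 FPKM in pHes1_ENC and 0.0150 in pHes1_EPC at P1, and 0.0463 and 0.0302 at P4. The intervals overlap in all 4 comparisons of fractions and ages, so no difference is read from these levels. Its relative Lhx5 was at 1.42, 0.068, 0.282 and 0.144 FPKM, and Calb1, the calcium-binding protein calbindin that marks mature horizontal cells, at no more than 0.191. The interval of Lhx1 reached 0 in 3 of the 4 libraries, and a difference in Lhx1 was not detectable at levels this low.

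With age the members divided by fraction. In pHes1_ENC all 10 had a lower point value at P4 than at P1, 9 with intervals apart (38.1% of all genes in either direction), and 6 were lower by more than 2-fold on the log2(FPKM + 1) scale (Tfap2a, Tfap2b, Barhl2, Foxn4, Ptf1a and Tfap2c), beside 5.94% of all genes and 10.5% of expressed genes. In the other direction there were 0 members, 2.77% of all genes and 4.88% of expressed genes. In pHes1_EPC 5 point values were lower and 5 higher, and 7 had intervals apart, as had 41.8% of all genes. On the log2(FPKM + 1) scale 1 member, Foxn4, was lower there by more than 2-fold, beside 2.57% of all and 4.57% of expressed genes. Higher there were 0 members, beside 4.17% and 7.43%. Ptf1a (0.788 FPKM), Tfap2c (0.666), Onecut2 (0.906), Onecut1 (0.259) and Lhx1 (0.0150) stood below 1 FPKM in P1 pHes1_EPC. A fall from such a level cannot pass 2-fold on that scale, so the counts of lower members in the 2 fractions are not on equal terms. By the plain FPKM ratio, with no pseudocount, 2 members were lower in pHes1_EPC (Foxn4 and Onecut1) and 2 higher (Tfap2c and Lhx1, the latter with overlapping intervals). In pHes1_ENC 7 were lower and 0 higher by that ratio. The share of all genes past 2-fold without a pseudocount was not computed, so these counts have no background beside them. The median difference was -2.12 in pHes1_ENC and -0.14 in pHes1_EPC, beside 0 for all genes in each. For expressed genes it was 0.004 in pHes1_ENC and 0.19 in pHes1_EPC. Of the members with higher point values in pHes1_EPC, Tfap2c (0.90) and Barhl2 (0.39) lay above 0.19. Ptf1a (0.16), Onecut2 (0.16) and Lhx1 (0.02) lay below it, but the pseudocount shrinks differences at levels as low as theirs. Their plain FPKM ratios of P4 to P1 were 1.27 (0.587 to 2.82), 1.25 (1.01 to 1.56) and 2.02. The intervals of Ptf1a and of Lhx1 overlapped. By the plain FPKM ratio Tfap2a was 23.9 times lower at P4 in pHes1_ENC (20.04 to 29.7), Tfap2b 13.7 times (12.7 to 15.2) and Barhl2 12.5 times (9.10 to 15.9). In pHes1_EPC the same genes were 1.78 times lower (1.07 to 3.09), 1.77 times lower (1.36 to 2.33) and 1.48 times higher (0.964 to 2.27). For Ptf1a, Tfap2a, Tfap2b, Tfap2c and Barhl2 the difference between fractions was smaller at P4 than at P1, and their levels in pHes1_ENC were 4.33 to 23.9 times lower at P4. Tfap2c was also 3.15 times higher at P4 in pHes1_EPC. On the log2(FPKM + 1) scale the difference was smaller at P4 for Onecut2 (-1.92 and -0.94) and Onecut1 (-1.81 and -1.23) too, though not by the plain ratio for Onecut1. It was larger for Foxn4 (0.11 and 0.88) and Prox1 (0.38 and 0.70). Rod genes were higher at P4 in both fractions, 6 of 6 by more than 2-fold in each, with a median difference of 3.27 in pHes1_ENC and 3.86 in pHes1_EPC, and their part in the members' levels was not tested.

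**Figure D4:**
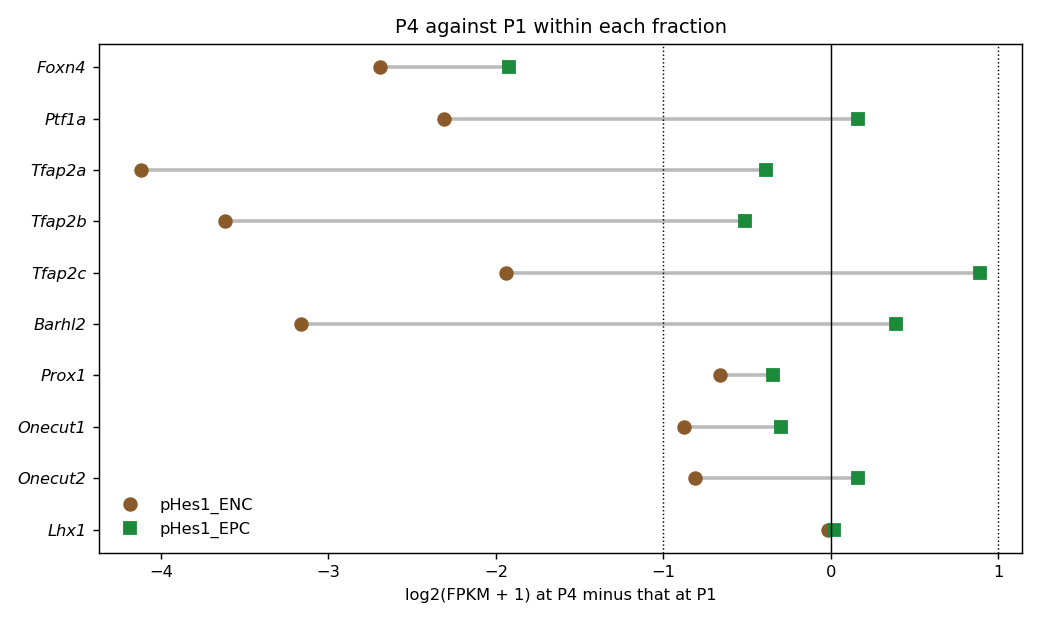
Difference in log2(FPKM + 1), P4 minus P1, for each gene in pHes1_ENC (brown circles) and pHes1_EPC (green squares), with dotted lines at 2-fold in either direction and 1 library per fraction and age. All values of pHes1_ENC lie below 0, from -4.12 (Tfap2a) to -0.01 (Lhx1), and those of pHes1_EPC run from -1.92 (Foxn4) to 0.90 (Tfap2c).

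The order of the 10 genes by FPKM differed between the libraries. In P1 pHes1_ENC it ran Tfap2b, Tfap2a, Foxn4, Barhl2, Ptf1a, Tfap2c, Prox1, Onecut2, Onecut1 and Lhx1, and the neighbours Barhl2, Ptf1a and Tfap2c had overlapping intervals. In P1 pHes1_EPC Foxn4 and Prox1 came first, apart from each other, and Tfap2b, Barhl2, Tfap2a, Onecut2, Ptf1a and Tfap2c followed with each neighbouring pair overlapping. In P4 pHes1_ENC Prox1, Tfap2b, Tfap2c and Foxn4 led, each apart from the next, and the pairs from Foxn4 down to Onecut1 overlapped. In P4 pHes1_EPC Prox1, Foxn4 and Barhl2 led, each apart from the next, with Tfap2c overlapping Barhl2.

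Genes of amacrine cells lay on the same side as most of the factors at P1. Of 18 such genes 11 were lower in pHes1_EPC by more than 2-fold and 0 higher, with a median of -1.71, and at P4 6 were lower and 1 higher, with a median of -0.53. Slc32a1, the vesicular transporter of inhibitory transmitters, stood at 20.4 FPKM in pHes1_ENC and 0.454 in pHes1_EPC at P1, and 2.84 and 0.636 at P4, a pattern with the same high library as Ptf1a. Gad1, which makes GABA, was at 16.2, 0.566, 1.17 and 0.203 FPKM in the same order. Gad2, which also makes GABA, was at 25.0, 5.96, 2.78 and 5.43 FPKM, and lay above pHes1_ENC in pHes1_EPC at P4, 1.95 times (1.59 to 2.39), unlike Gad1. It falls outside the rule for named genes and was chosen after its values were seen. Slc6a9, the glycine transporter of glycinergic amacrine cells, went another way, with 19.1, 1.72, 62.6 and 10.1 FPKM, higher at P4 in both fractions. Meis2, a homeobox factor of amacrine cells, was at 71.0, 4.51, 48.0 and 12.8 FPKM and Calb2, a calcium-binding protein, at 21.6, 4.19, 5.12 and 1.79. Pax6, which both progenitors and amacrine cells use, was at 246 and 127 FPKM at P1 and at 28.3 and 126 at P4, and was the gene of this list that was higher in pHes1_EPC at P4.

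Genes of horizontal cells gave no common direction, and several were too low to show one. Of 8 genes 2 were lower and 1 higher in pHes1_EPC at P1, and 0 and 1 at P4, with medians of -0.03 and 0.00. Calb1, Gja10 and Onecut3 stayed at or below 0.191, 0.058 and 0.0701 FPKM, so they could not pass 2-fold on this scale and weigh on the medians. The lower genes at P1 were Sall3 (2.17 FPKM in pHes1_ENC and 0.468 in pHes1_EPC) and Lhx5 (1.42 and 0.068), both under the 5 FPKM of the naming rule. The higher gene was Megf10, a receptor that spaces horizontal and amacrine cells and is also made by glia, with 3.55 FPKM in pHes1_ENC and 8.35 in pHes1_EPC at P1, and 0.673 and 13.6 at P4. Among 8 Müller glia genes 5 were higher in pHes1_EPC at P4, with a sum of 1769 against 243 FPKM, and their part in the Megf10 result was not tested.

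Of 16 partners and network genes, 7 were lower and 1 higher in pHes1_EPC at P1 and 5 lower and 5 higher at P4, with medians of -0.48 and 0.10. Prdm13, a factor induced by Ptf1a in amacrine precursors, was listed at 58.9 FPKM in pHes1_ENC and 1.74 in pHes1_EPC at P1, and 14.6 and 3.40 at P4, lower in pHes1_EPC at both ages like Ptf1a. The neurogenic factors Neurod1 (521, 21.6, 974 and 195 FPKM) and Neurod4 (347, 10.4, 437 and 113) were also higher in pHes1_ENC at both ages, but were not lower at P4. Both are made by photoreceptor and bipolar precursors as well. Neurog2, a proneural factor, was at 74.3, 19.3, 13.2 and 66.7 FPKM. Tcf4, an E protein, was at 40.0, 61.4, 24.9 and 92.1 FPKM and was the higher in pHes1_EPC at both ages, the reverse of Ptf1a. Rbpj was at 24.6, 18.2, 15.4 and 17.7 FPKM and Rbpjl, its pancreatic relative, at 0 or 0.00141.

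Among 9 paralogs 3 were lower and 0 higher in pHes1_EPC at P1, and 0 and 1 at P4, with medians of -0.03 and -0.16. Tfap2e, given above, was the one named at P1. Foxn2, a forkhead relative of Foxn4, was at 6.65 FPKM in pHes1_ENC and 11.7 in pHes1_EPC at P1, and 1.87 and 10.8 at P4, and was the higher at P4. Onecut3 stayed at or below 0.0701 FPKM in all 4 libraries.

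**Figure D5:**
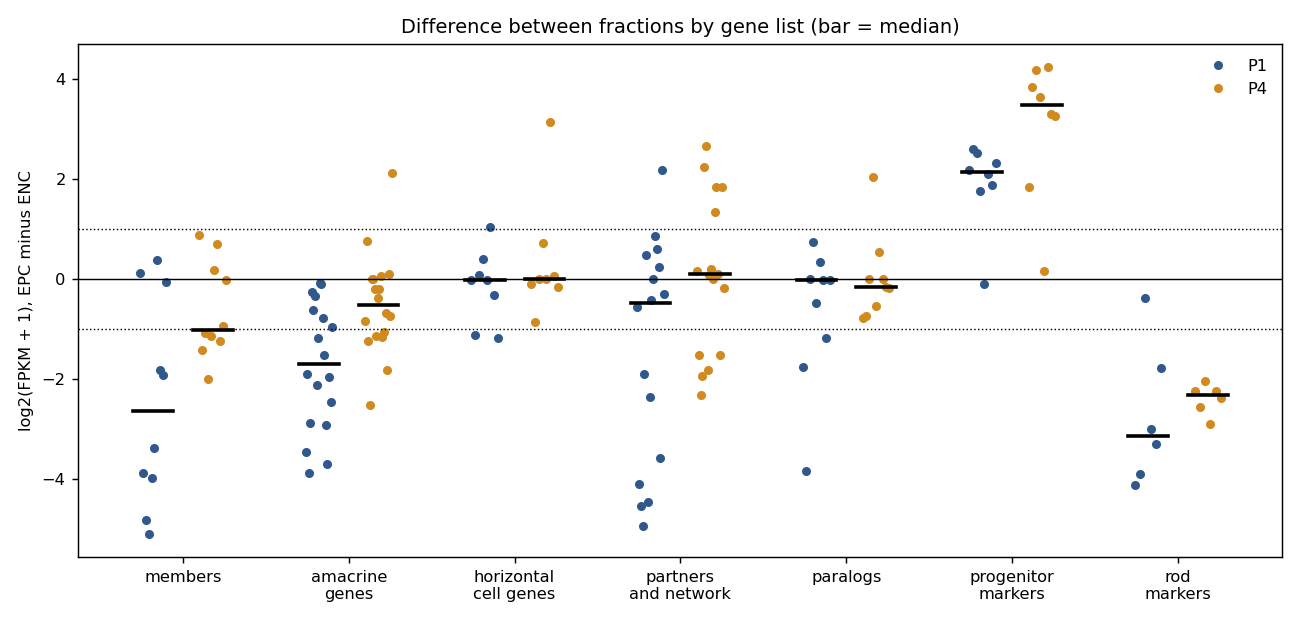
Difference in log2(FPKM + 1), pHes1_EPC minus pHes1_ENC, of single genes at P1 (blue) and P4 (orange) for the 10 members, 4 gene lists and 2 marker lists, with the median of each list as a black bar and dotted lines at 2-fold. The medians of the members are -2.65 and -1.01, of the amacrine genes -1.71 and -0.53, of the progenitor markers 2.14 and 3.47 and of the rod markers -3.15 and -2.32.

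The genes whose 4 levels were most like those of a member were searched among 12940 genes at 1 FPKM or more in some library, by the Euclidean distance between log2(FPKM + 1) values centred on each gene. With 4 libraries, a small distance says only that the same libraries are high and low. Nearest to Ptf1a were Dlg2 (0.089), Slc32a1 (0.153) and Elavl3 (0.170), and Tfap2c was the nearest member, as the 15th gene. Nearest to Tfap2b were Crabp1 (0.613), Tfap2a (0.704) and Atoh7 (0.777). Atoh7, a factor of early retinal precursors, was listed at 77.3 FPKM in pHes1_ENC and 3.54 in pHes1_EPC at P1, and 6.82 and 1.71 at P4.

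Nearest to Foxn4 were Nhs (0.552), Frem1 (0.626) and Cdh24 (0.747), with Prox1 as the nearest member at rank 896. Nearest to Prox1 were Ppp4r4 (0.064), Git1 (0.064) and Armcx4 (0.077), and its nearest member was Foxn4 at rank 11248. Nearest to Onecut2 were Zfhx4 (0.068), Sema6c (0.093) and Slc37a1 (0.118), and Onecut1 stood at rank 33 with a distance of 0.341.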

How the data were processed

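RNA of sorted pHes1_EPC and pHes1_ENC from P1 and P4 retinas was measured in 4 libraries without replicates. Total RNA was copied with random primers and sequenced as single-end reads of 36 bases. The authors aligned the reads to NCBI37/mm9 with TopHat2 2.0.8b, allowing 50 positions per read, and FPKM per gene from Cufflinks 2.1.1 were deposited with their 95% bounds. Base calls were converted with bcl2fastq 1.8.4 per the submitters' processing notes. The deposited FPKM, corrected for transcript length and library size, were analysed as they stand. Reads placed at several positions can raise genes with repeats or close relatives, and the pseudocount shrinks differences of low genes.

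The tables held 23021 lines and 22558 symbols. Small RNAs were left out by symbol (797 lines, 731 symbols), and 234 symbols with several lines were represented by their highest line, leaving 21827 genes. Libraries were compared by subtracting log2(FPKM + 1) values, and genes beyond 1 in size, which is 2-fold, were counted as lower or higher. Ratio ranges divide the lower bound of 1 library by the upper bound of the other and the reverse. With 1 library in each group no test was run. Gene lists were described by counts and medians, naming by size up to 3 genes in each direction and age that reached 5 FPKM. Some genes that this rule names are not reported here. The members and lists were chosen with earlier results of these data known.

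Gene positions are those of the tables, with starts counted from 1, and exons those of GENCODE on the same build. Computation used Python 3.11.15, numpy 2.4.6, pandas 2.3.3 and matplotlib 3.10.9, and was tested on simulated data. Alternatives were another pseudocount or none, a filter on FPKM, 3 scalings, summed lines, the Cufflinks intervals and the Cufflinks status. ChIP-seq and RT-qPCR measurements were not used here, and 0 columns of other samples were found.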

Additional observations from a re-analysis of the deposited data

Results flagged for a closer look

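Some genes went in opposite directions in the groups compared, with 1 library on each side, and the difference was not tested. Tfap2c was lower at P4 than at P1 in pHes1_ENC, with a log2(FPKM + 1) difference of -1.94, and higher in pHes1_EPC, with 0.90. Onecut2 was lower at P4 in pHes1_ENC (-0.81) and higher in pHes1_EPC (0.16), where the ranges of its intervals ended close to each other at 1.01 FPKM. The median of expressed genes for P4 against P1 in pHes1_EPC was 0.19 on this scale. The pseudocount shrinks differences near 1 FPKM, and the plain ratio of Onecut2 was 1.25 (1.01 to 1.56). Whether Onecut2 rose relative to expressed genes was not tested. Neurog2 was lower in pHes1_EPC than in pHes1_ENC at P1 (-1.89) and higher at P4 (2.25). Pax6 was lower in pHes1_EPC at P1 (-0.95) and higher at P4 (2.12), and its level in pHes1_EPC was 127 FPKM at P1 and 126 at P4.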

How the results depend on the processing

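No paired analysis was possible because each fraction has 1 library at each age, and the labels carry no replicate numbers that the groups could share. With 1 library in each group none was left out in turn. A fit of fraction and age together was not run. With a pseudocount of 0.1 the median difference of the members was -3.59 at P1 and -1.40 at P4, 1 member was higher in pHes1_EPC at P4, and 2 were lower and 1 higher at P4 in pHes1_EPC. With no pseudocount 1 was higher in pHes1_EPC at P4, and 2 were lower and 2 higher at P4 in pHes1_EPC. Shares of all genes with a pseudocount of 0.1 or none were not computed. Among the members that reached 1 FPKM the median at P1 was -3.38, and under quantile scaling the median at P4 was -1.30. Of 158 values of single members under all alternatives, 125 stayed within the interval, 33 moved beyond it and 0 of those past 2-fold turned. Part of the 125 could not move. All 10 members had a single line and the status OK, so summed lines and the status rule left their values unchanged. The filter on FPKM only left members out. The count of 125 is therefore no measure of stability. Barhl2 at P4 lay at 0.17 and turned to -0.03 under the same total and to -0.17 under quantile scaling. Foxn4 at P4 passed 2-fold with a pseudocount of 0.1 (1.01) or none (1.02). Onecut2 at P4 passed 2-fold under the same changes (-1.38 and -1.45) and under the same total (-1.10), median-of-ratios (-1.06) and quantile scaling (-1.24). Scaling moved the median of expressed genes from 0.17 to -0.09 for pHes1_EPC against pHes1_ENC at P4 under the same total, and from 0.19 to -0.11 for P4 against P1 in pHes1_EPC. Lhx1 at P1 passed 2-fold without a pseudocount (-1.93), a ratio of levels under 0.06 FPKM whose intervals overlap.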
